A study of Mus musculus with 4 samples.

Results

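The 8 genes described here encode receptors through which hormones, neuropeptides and growth factors act on feeding neurons: Npy1r, Npy2r, Npy5r, Lepr, Insr, Igf1r, Glp1r and Ntrk2. They were taken from a list of names, out of 21900 protein-coding genes. Every ATAC-seq peak that overlapped one of the genes, or the 50 kb to either side of it, was collected from the 4 library lists and joined with peaks of other libraries sharing at least 1 bp. This gave 59 regions of open chromatin out of 67299 in the whole series. Npy1r and Npy5r are neighbours, and their 4 regions were counted once.

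ATAC-seq marks open chromatin by the places where a transposase can insert adapters. Nuclei were isolated from the PVH, the paraventricular hypothalamic nucleus, of mice aged 12 weeks of genotype Otp fl/fl; Ai14, that is, with loxP-flanked Otp, a homeodomain transcription factor gene, and a Cre-dependent reporter. 2 libraries came from mice with an AAV-GFP injection, the controls, and 2 from mice with an AAV-Cre injection, which removes the flanked part of Otp in infected cells, and tissue was taken 4 weeks later. The study asked whether adult loss of Otp makes chromatin near its targets less open. The labels name no sorting of infected cells, no sex, no viral promoter and no number of animals per library, and p-values measure only the spread between these libraries, which may be technical. In such bulk tissue, fewer cells of a type and less open chromatin per cell cannot be told apart.

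Neuropeptide Y is a strong stimulant of feeding, released in the PVH by AgRP neurons. It acts through G protein-coupled receptors, of which Y1 (Npy1r) and Y5 (Npy5r) mediate feeding and Y2 (Npy2r) acts mostly as a presynaptic autoreceptor. Leptin, insulin and GLP-1 report energy stores and meals through Lepr, Insr and Glp1r, and the receptors for IGF-1 (Igf1r) and BDNF (Ntrk2, also called TrkB) are receptor tyrosine kinases, BDNF signalling in the PVH being known to restrain intake.

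The receptor promoters are shown because the start site is the place where the genes can be set side by side, from open in all 4 libraries to open in none. Each line is a RefSeq promoter of build GRCm38.p6 (mm10), from 250 bases before to 50 bases from the start site onward, read 5′ to 3′ on the gene's strand. Capitals mark bases inside an open region joined from the 4 libraries, whichever library held the peak.
Npy1r (chr8:66697172-66697471, plus strand): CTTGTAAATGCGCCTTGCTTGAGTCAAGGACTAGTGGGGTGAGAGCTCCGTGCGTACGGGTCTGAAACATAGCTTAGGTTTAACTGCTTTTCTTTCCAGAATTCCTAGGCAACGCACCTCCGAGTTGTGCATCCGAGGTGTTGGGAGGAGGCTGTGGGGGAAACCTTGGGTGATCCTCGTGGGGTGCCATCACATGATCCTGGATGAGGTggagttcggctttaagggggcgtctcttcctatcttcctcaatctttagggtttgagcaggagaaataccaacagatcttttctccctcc
Npy5r (chr8:66688045-66688344, minus strand): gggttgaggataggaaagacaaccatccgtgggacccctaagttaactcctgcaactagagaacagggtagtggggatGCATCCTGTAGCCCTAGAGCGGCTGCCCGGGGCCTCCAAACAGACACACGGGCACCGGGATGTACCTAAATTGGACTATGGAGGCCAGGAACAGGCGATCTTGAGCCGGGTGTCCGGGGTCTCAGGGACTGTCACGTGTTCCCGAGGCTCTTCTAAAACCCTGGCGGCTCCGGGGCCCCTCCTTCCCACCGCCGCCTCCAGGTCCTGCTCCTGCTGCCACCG
Npy2r (chr3:82548036-82548335, minus strand): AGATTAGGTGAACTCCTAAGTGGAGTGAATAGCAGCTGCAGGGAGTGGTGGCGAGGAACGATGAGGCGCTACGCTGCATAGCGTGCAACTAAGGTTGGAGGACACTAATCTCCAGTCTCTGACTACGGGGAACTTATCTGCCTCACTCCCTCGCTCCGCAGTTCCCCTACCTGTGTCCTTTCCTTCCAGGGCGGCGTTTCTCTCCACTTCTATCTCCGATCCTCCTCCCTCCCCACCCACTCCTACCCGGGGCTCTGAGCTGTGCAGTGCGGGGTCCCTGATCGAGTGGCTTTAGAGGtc
Glp1r (chr17:30901617-30901916, plus strand): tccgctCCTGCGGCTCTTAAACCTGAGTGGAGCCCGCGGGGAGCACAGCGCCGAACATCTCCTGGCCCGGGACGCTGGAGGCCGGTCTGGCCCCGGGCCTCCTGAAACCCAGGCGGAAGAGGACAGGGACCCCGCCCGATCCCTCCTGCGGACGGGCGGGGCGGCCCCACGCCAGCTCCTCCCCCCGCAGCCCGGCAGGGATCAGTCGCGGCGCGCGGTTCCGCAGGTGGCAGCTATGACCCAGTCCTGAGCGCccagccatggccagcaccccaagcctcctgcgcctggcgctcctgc
Lepr, first of 2 listed starts (chr4:101717157-101717456, plus strand): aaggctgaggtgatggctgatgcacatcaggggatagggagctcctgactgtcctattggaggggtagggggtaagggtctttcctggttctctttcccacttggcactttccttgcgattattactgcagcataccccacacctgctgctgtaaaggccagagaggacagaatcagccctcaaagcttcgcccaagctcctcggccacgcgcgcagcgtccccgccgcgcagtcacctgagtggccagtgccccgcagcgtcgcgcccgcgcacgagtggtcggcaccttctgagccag
Igf1r (chr7:67952007-67952306, plus strand): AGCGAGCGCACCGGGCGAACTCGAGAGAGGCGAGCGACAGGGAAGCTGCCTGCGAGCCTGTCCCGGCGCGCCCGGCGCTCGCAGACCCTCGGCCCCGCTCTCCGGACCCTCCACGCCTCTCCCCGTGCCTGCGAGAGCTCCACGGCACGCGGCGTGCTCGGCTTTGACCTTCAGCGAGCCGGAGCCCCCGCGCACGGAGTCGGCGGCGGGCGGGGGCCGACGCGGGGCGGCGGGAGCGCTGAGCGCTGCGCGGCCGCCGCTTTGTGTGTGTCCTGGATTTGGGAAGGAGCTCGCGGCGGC
Ntrk2 (chr13:58806319-58806618, plus strand): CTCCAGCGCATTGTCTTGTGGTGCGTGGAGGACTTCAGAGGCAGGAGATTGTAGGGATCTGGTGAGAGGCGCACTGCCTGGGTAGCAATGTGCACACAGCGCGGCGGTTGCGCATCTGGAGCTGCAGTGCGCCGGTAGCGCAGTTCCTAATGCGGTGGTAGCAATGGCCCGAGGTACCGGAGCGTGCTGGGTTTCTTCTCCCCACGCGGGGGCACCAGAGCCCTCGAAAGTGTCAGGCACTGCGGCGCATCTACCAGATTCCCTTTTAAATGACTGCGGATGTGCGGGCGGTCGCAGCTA
Open regions held 300 bases of the Igf1r and of the Ntrk2 promoter, 298 at Npy2r, 248 at Glp1r, 222 at Npy5r, 210 at Npy1r and 0 at either Lepr start. Of the 8 genes, 7 were in the RefSeq promoter table, with strand. For Insr both gene ends were used in place of a start.

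The lists differed in length, holding 57682 and 34100 peaks in the controls, against 23384 and 26612 after AAV-Cre. The receptor genes had a peak in 47 and 36 regions in the controls and in 25 and 22 after AAV-Cre. The means were 41.5 ± 7.78 (SD, n = 2) and 23.5 ± 2.12 (SD, n = 2), and the 2-sided exact permutation test gave p = 0.333, the smallest that 3 splits of 4 libraries allow. As a share of each library's own regions, the receptor regions made up 0.0837% and 0.107% in the controls, against 0.11% and 0.0846% after AAV-Cre, so that the groups overlapped on this scale. Of 6 pan-neuronal marker genes 5 were open at the start in every library. Over protein-coding genes, 44.1% had a start-site peak in all 4 libraries and 40.5% in none. Where a marker had no listed start, either gene end was used. A listed start was known for 4 of the 6 pan-neuronal markers, 6 of 7 PVH, 4 of 5 astrocyte and 2 of 5 oligodendrocyte markers. It was known for 2 of 2 oligodendrocyte precursor, 3 of 5 microglial and 4 of 5 endothelial markers. For ependymal and tanycyte markers it was 1 of 3, and for neighbouring nuclei 4 of 7. Of 7 PVH markers 4 and 2 were open in the controls, against 1 and 3 after AAV-Cre, Pou3f2 being open in all 4 libraries, Sim1, Otp and Crh in some, and Avp, Oxt and Trh in none. Astrocyte and oligodendrocyte markers gave the same counts, 2 and 1 of 5 in the controls, against 0 and 1 of 5 after AAV-Cre. Markers of neighbouring nuclei gave 3 and 2 of 7, then 1 and 2 of 7, and of 3 ependymal and tanycyte markers 2 were open in each library. No marker of microglia (5), endothelial cells (5) or oligodendrocyte precursors (2) was open at its start in any library. The part that list length and cell types play in the results below was not tested.

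**Figure D1:**
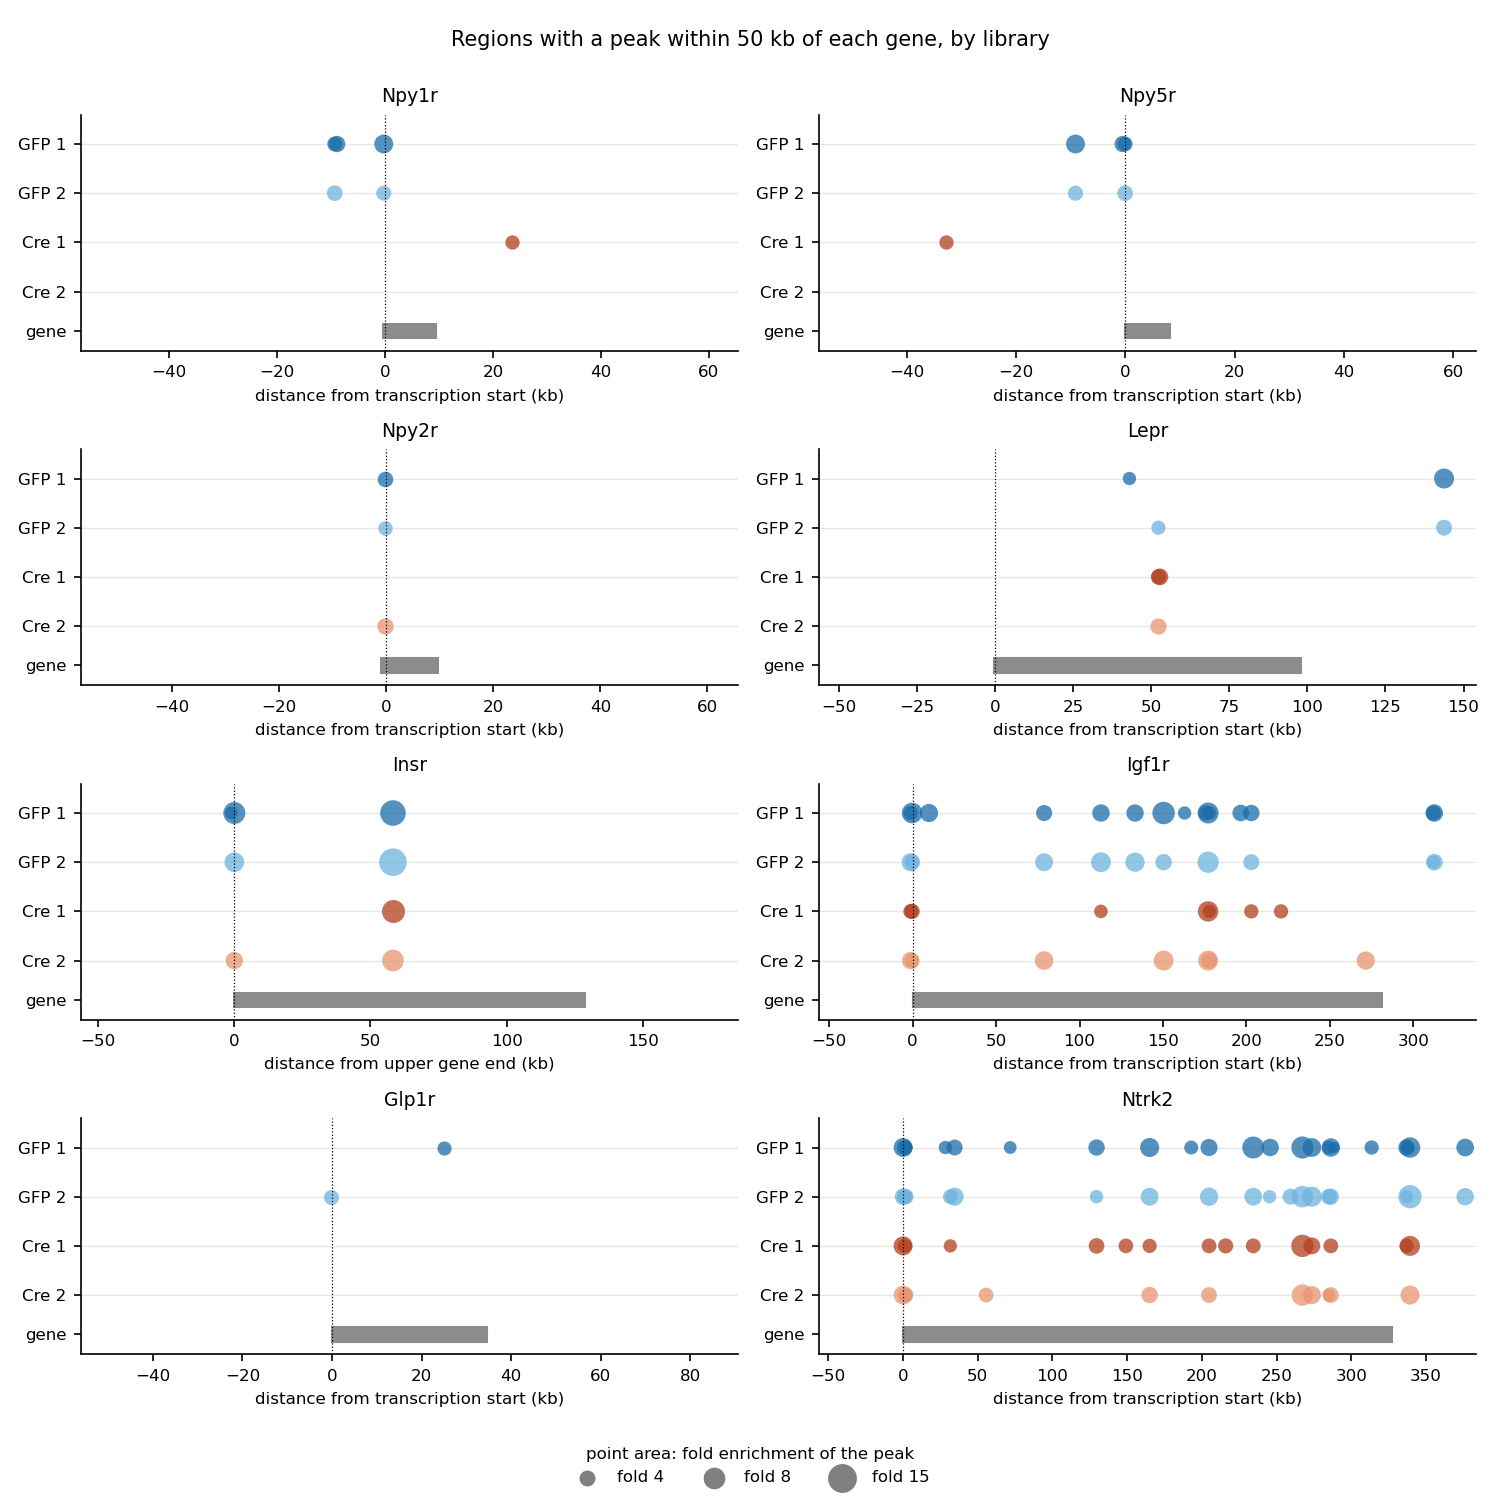
Position of every region with a peak at the 8 receptor genes, as distance in kb from the transcription start (for Insr, from the upper gene end), with transcription running to the right for the other genes. Each row is a library, point area is the fold enrichment the authors gave the peak, and grey bars are the gene bodies. Npy1r and Npy5r show the same 4 regions from opposite sides. Igf1r and Ntrk2 have 17 and 28 regions, of which 14 and 24 overlap the gene bodies.

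At the Y1 and Y5 receptor genes both start sites had a peak in both control libraries and in neither AAV-Cre library. Npy1r lies on chromosome 8 from 66697149 to 66706800 and Npy5r at 66679965 to 66688094, so that the genes point away from each other with their starts within 10 kb. The Npy1r region, at 66697011 to 66697381, spans the lower end of the gene model and ends 41 bp before the listed start site. Its fold enrichment, the authors' ratio of signal to local background at the summit of each peak, was 7.46 and 4.76 in the controls. Those peaks stood at percentiles 35.1 and 81.1 of their own lists, counted from the strongest by −log10 p. The summits lay at -328 and -268 bp from the listed start. The Npy5r region, at 66687965 to 66688266, covers the start site, with folds of 4.66 and 5.13 in the controls at percentiles 75.8 and 73.6. A further control peak 402 bp upstream of the Npy5r start (5.59) was in AAV-GFP replicate 1 alone. The peak nearest to these genes in an AAV-Cre library lay 14010 bp beyond the far end of Npy1r, in AAV-Cre replicate 1 (4.31, percentile 89.6), and AAV-Cre replicate 2 had no peak in the whole interval.

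These 2 of 8 receptor genes were control-specific at their starts, meaning a peak within 1 kb in both controls and in neither AAV-Cre library. Over 17492 protein-coding genes with a listed start, 2.93% were control-specific and 0.0457% Cre-specific, the converse. The weaker control peak at each gene had a low rank, and control peaks of low rank were often absent after AAV-Cre across the genome. Of all regions whose weaker control peak ranked within percentile 10, 0.223% had no AAV-Cre peak. The share was 1.19, 6.16, 14, 21.7, 34 and 41% over the next steps of 10 up to percentile 70, 51.6% between 70 and 80, the place of Npy5r, 58.5% between 80 and 90, the place of Npy1r, and 65.4% beyond 90. The authors' deposited control group list held both regions, with folds of 7.25 at Npy1r and 5.93 at Npy5r, and their AAV-Cre group list held neither. The group lists may hold only peaks found in both libraries of a group, so that absence from them is not separate from the library lists. In lists cut to 23384 peaks each, the length of the shortest, 1 library kept a peak at the Npy1r start and 0 at the Npy5r start, so that neither gene was specific to a group. At a −log10 q of at least 5, the Npy1r region kept its peak in 1 control library and the Npy5r region in 0, the peak 402 bp upstream of Npy5r being kept in AAV-GFP replicate 1.

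Npy2r, the third receptor gene for neuropeptide Y, on chromosome 3 from 82538383 to 82548989, had a single region in the whole window, at its start. A peak was there (82548038 to 82548609) in both controls, with folds of 5.10 and 4.38, and in AAV-Cre replicate 2, with 5.63. These stood at percentiles 63.1, 87.3 and 59.3. Their summits lay at -17, -489 and -428 bp from the listed start, in the same order, so that the joined peaks need not mark 1 site. AAV-Cre replicate 1 had none, and starts with a peak in 3 libraries were 6.98% of protein-coding genes. The AAV-Cre replicate 2 peak thus had the strongest rank of the 3 in its own list, and the groups overlapped. In the authors' deposited group lists the region was in the control list alone (4.68), which may follow from the missing peak in AAV-Cre replicate 1.

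**Figure D2:**
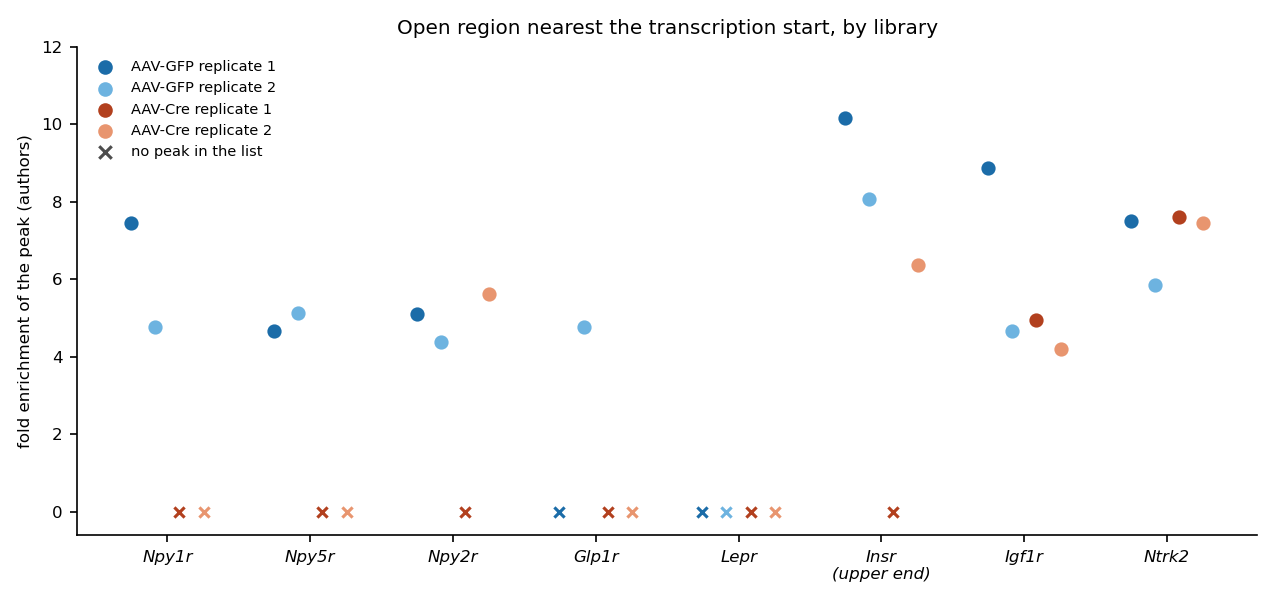
Fold enrichment, as the authors deposited it for each peak, of the open region nearest the transcription start of each receptor gene (for Insr, the upper gene end), 1 point per library and a cross where the list held no peak. Both AAV-Cre libraries lack a peak at Npy1r and Npy5r, AAV-Cre replicate 1 also at Npy2r and Insr, while Glp1r has a peak in AAV-GFP replicate 2 alone, and Lepr has none in any library.

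The genes for the receptors of circulating signals were open to very different degrees. Glp1r, the GLP-1 receptor gene, on chromosome 17 from 30901867 to 30936510, had a start-site peak in AAV-GFP replicate 2 alone, at 30901623 to 30901870 with a fold of 4.76 and percentile 81.1. Its other region, 24881 bp into the gene, was in AAV-GFP replicate 1 alone (4.19). Neither AAV-Cre library, and neither of the authors' group lists, held a peak at Glp1r. Genes with a start-site peak in 1 library were 4.07% of protein-coding genes.

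Lepr, the leptin receptor gene, on chromosome 4 from 101717137 to 101815352, had no peak within 1 kb of either start in any of the 4 libraries, as had 40.5% of protein-coding genes. Its peaks lay deep in the gene. The region at 101769537 to 101769958, 51631 bp from the nearer start, had no peak in AAV-GFP replicate 1, the longest list, but had one in the other 3 libraries. The folds were 4.23 in AAV-GFP replicate 2, 4.85 in AAV-Cre replicate 1 and 5.52 in AAV-Cre replicate 2, at percentiles 91.3, 76.9 and 63.6. Only 0.321% of all regions were missing from AAV-GFP replicate 1 alone, and at these receptors it was 1 of 59. A second region, starting at 101770103, was in AAV-Cre replicate 1 alone (5.93). The authors' deposited AAV-Cre group list held 1 peak over both, from 101769359 to 101770318, with a fold of 6.38 and a −log10 q of 8.53, and their control group list held none there. In lists of equal length the first region was Cre-specific, as were 4.6% of all regions in such lists. The peak of AAV-GFP replicate 2 was beyond the 68.6% of that list that was kept. The control-specific region in the Lepr window, at 101861029 to 101861297 (8.39 and 5.29), lay 45677 bp beyond Lepr and 3643 bp from Gm52666.

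Insr, the insulin receptor gene, on chromosome 8 from 3150922 to 3279649, held the region with the highest fold of all 59. This region, at 3221000 to 3221733 and 57916 bp inside the upper end of the gene, had a peak in all 4 libraries. Its fold was 13.7 and 16.0 in the controls, against 11.1 and 9.87 after AAV-Cre, at percentiles 5.56, 2.90, 7.30 and 10.9 of the lists. Among regions shared by all 4 libraries it stood at percentiles 21.3 and 6.74 in the controls, against 11.6 and 19.6 after AAV-Cre. The groups thus overlapped in that rank, though not in fold or in percentile of lists that differ in length. The region across the upper gene end, at 3279135 to 3279869, had folds of 10.2 and 8.09 in the controls and 6.37 in AAV-Cre replicate 2, and no peak in AAV-Cre replicate 1. Its control peaks were strong, at percentiles 9.95 and 24.7. The authors' deposited group lists gave the inner region 17.1 in the control list and 12.9 in the AAV-Cre list. They gave the gene end 10.2 in the control list alone, which may follow from the missing peak in AAV-Cre replicate 1.

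Igf1r and Ntrk2, the receptor tyrosine kinase genes for IGF-1 and BDNF, were the members with a start-site peak in all 4 libraries, against 44.1% of protein-coding genes. They are also the longest of the 8, with 281.4 and 327.5 kb, and held 17 and 28 of the 59 regions. At the Igf1r start (chromosome 7, gene 67952257 to 68233668) the region at 67951466 to 67952470 had folds of 8.88 and 4.67 in the controls, against 4.94 and 4.19 after AAV-Cre. The adjoining upstream region at 67950837 to 67951465 had 4.40 and 6.96 in the controls, against 4.60 and 6.40 after AAV-Cre. At the start AAV-GFP replicate 1 stood highest and the other 3 libraries lay from 4.19 to 4.94, and upstream each group had a low and a high value, so that the groups overlapped in both regions. Inside Igf1r the region at 68129015 to 68129556 had folds of 9.20 and 9.51 in the controls, against 8.77 and 8.29 after AAV-Cre, the latter just below both controls. Its rank among the shared regions went the other way, at percentiles 38.8 and 28.2 in the controls, against 18.8 and 22.5 after AAV-Cre.

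Ntrk2 (chromosome 13, 58806472 to 59133970) had a start-site region at 58806289 to 58807113 with folds of 7.52 and 5.87 in the controls, against 7.61 and 7.46 after AAV-Cre. Its summit lay at -77 bp from the listed start in both controls and in AAV-Cre replicate 1, and at 51 bp in AAV-Cre replicate 2. Of 28 regions at Ntrk2, 8 were shared by all 4 libraries. The strongest inside the gene, at 59073487 to 59074248, overlaps the end of the non-coding gene Gm53063 and had folds of 10.3 and 9.71 in the controls, against 10.5 and 9.63 after AAV-Cre. Beyond the gene, a shared region at 59145631 to 59146159 overlaps the end of Gm34307, with 8.70 and 11.3 in the controls, against 8.41 and 7.66 after AAV-Cre.

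Control-specific regions were 3 of 17 at Igf1r and 2 of 28 at Ntrk2, against 11.5% of all regions, and lay away from the starts. Igf1r had 1 inside the gene, at 68085368 to 68085641 and 133111 bp from the start, with control folds of 6.32 and 7.81. The other 2 in its window, at 68264189 to 68264390 (4.80 and 3.65) and 68264620 to 68264887 (6.44 and 5.85), lay 94 and 136 bp from an end of Pgpep1l, a neighbouring gene. Ntrk2 had 1 inside, at 58840987 to 58841298 (5.37 and 6.85), and 1 at 59182688 to 59182904 (6.52 and 6.35), 48718 bp beyond the gene. Of the 8 control-specific regions, 4 thus lay in the flanks and 2 of these beside Pgpep1l.

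Over all 59 regions, the shares of group-specific and shared regions were near those of the series, while regions in 3 libraries were more frequent. Control-specific regions were 8 of 59 (13.6%), against 11.5% of all regions and 11% of those within 50 kb of a protein-coding gene. Cre-specific regions were 0 of 59, against 1.18% of all regions and 1.11% of those near a protein-coding gene. Regions shared by the 4 libraries were 12 of 59 (20.3%), against 21.7%. Of 31 receptor regions with a peak in both controls, 8 (25.8%) had none after AAV-Cre, against 27% of such regions in the series. Of 14 with a peak in both AAV-Cre libraries, 0 lacked a control peak, against 4.8%. Among the 31, none of the 13 whose weaker control peak ranked within percentile 40 lacked an AAV-Cre peak, against 5.32% of such regions in the series, and 8 of the 18 beyond it did (44.4%, against 43.9%). The best-ranked of these 8 stood at percentile 46.6, so that a bound at 40 places all 8 beyond it by construction. Peaks in 1 library made up 25 of 59 regions (42.4%, against 48.8%). AAV-GFP replicate 1 held 15 of them (25.4% of the 59, against 34.9%) and AAV-GFP replicate 2 held 3 (5.08%, against 5.95%). AAV-Cre replicate 1 held 5 (8.47%, against 3.4%) and AAV-Cre replicate 2 held 2 (3.39%, against 4.61%). Regions in 3 libraries were 13 of 59 (22.0%), against 10.9% of all regions. AAV-Cre replicate 1 was the library without a peak in 6 of them (10.2% of the 59, against 5.8%) and AAV-Cre replicate 2 in 5 (8.47%, against 3.43%).

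**Figure D3:**
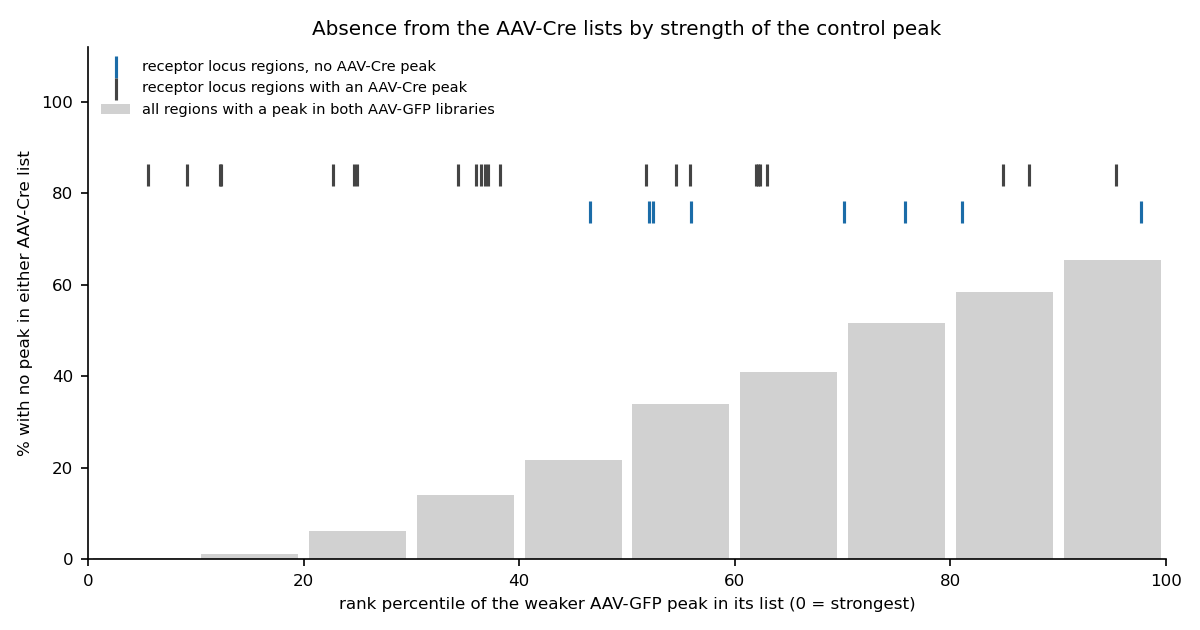
Grey bars give, for all 28575 regions that both AAV-GFP lists hold, the percentage with no peak in either AAV-Cre list, by the rank percentile of the weaker control peak. Ticks place the 31 receptor regions of this kind on the same axis: the 8 without an AAV-Cre peak all lie beyond percentile 40, where absence was also common in the series.

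The authors' deposited group lists held 31 peaks at the receptor genes in the control list of 28592 and 14 in the AAV-Cre list of 16614. The names of these lists carry "overlap", and regions with a peak in both libraries of a group were about as many. They numbered 28575 and 16568 in the series, and 31 and 14 at the receptor genes. A region missing from 1 library of a group may thus be absent from the group list for that reason. Of the 31 control peaks 20 had no peak in the AAV-Cre list, a larger share than over the series. There 48.9% of 28502 control list regions had none, counted as regions and not as single peaks. Of the 14 AAV-Cre peaks 2 had no peak in the control list, against 11.6% of 16476 AAV-Cre list regions. These were the peak inside Lepr and one inside Igf1r at 68129777 to 68130161 (4.56), which overlaps a region found in AAV-GFP replicate 1 and both AAV-Cre libraries.

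The 12 receptor regions shared by all 4 libraries could be ranked on a common footing, among the 14634 shared regions of the series. Their mean percentile was 53.0 and 50.2 in the controls, against 53.4 and 51.1 after AAV-Cre. The difference of 0.687 points was smaller than the spread within groups, and the 2-sided exact permutation test gave p = 0.667, the smallest possible being 0.333. Of the 12, 2 ranked weaker in both AAV-Cre libraries than in both controls (16.7%, against 19.7% of all shared regions) and 3 ranked stronger (25%, against 19.8%). The start of Ntrk2 was among the stronger ones, at percentiles 40.2 and 53.2 in the controls, against 19.3 and 21.6 after AAV-Cre. It moved by 26.3 points toward stronger rank, and 11.2% of shared regions shifted as far in either direction. The Ntrk2 region at Gm53063 also ranked higher after AAV-Cre (31.5 and 28.3, then 8.74 and 14.4), as did the inner Igf1r region at 68129015 (38.8 and 28.2, then 18.8 and 22.5). The 2 that ranked weaker lay inside Ntrk2. One, at 58971419 to 58971897, stood at 67.0 and 69.9 in the controls, against 95.9 and 76.1 after AAV-Cre, and the other, at 59010960 to 59011837, at 80.7 and 69.3, then 92.0 and 86.3. The Igf1r start region was the least repeatable, at 38.0 and 90.1 in the controls, a gap of 52.0 points within 1 group.

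**Figure D4:**
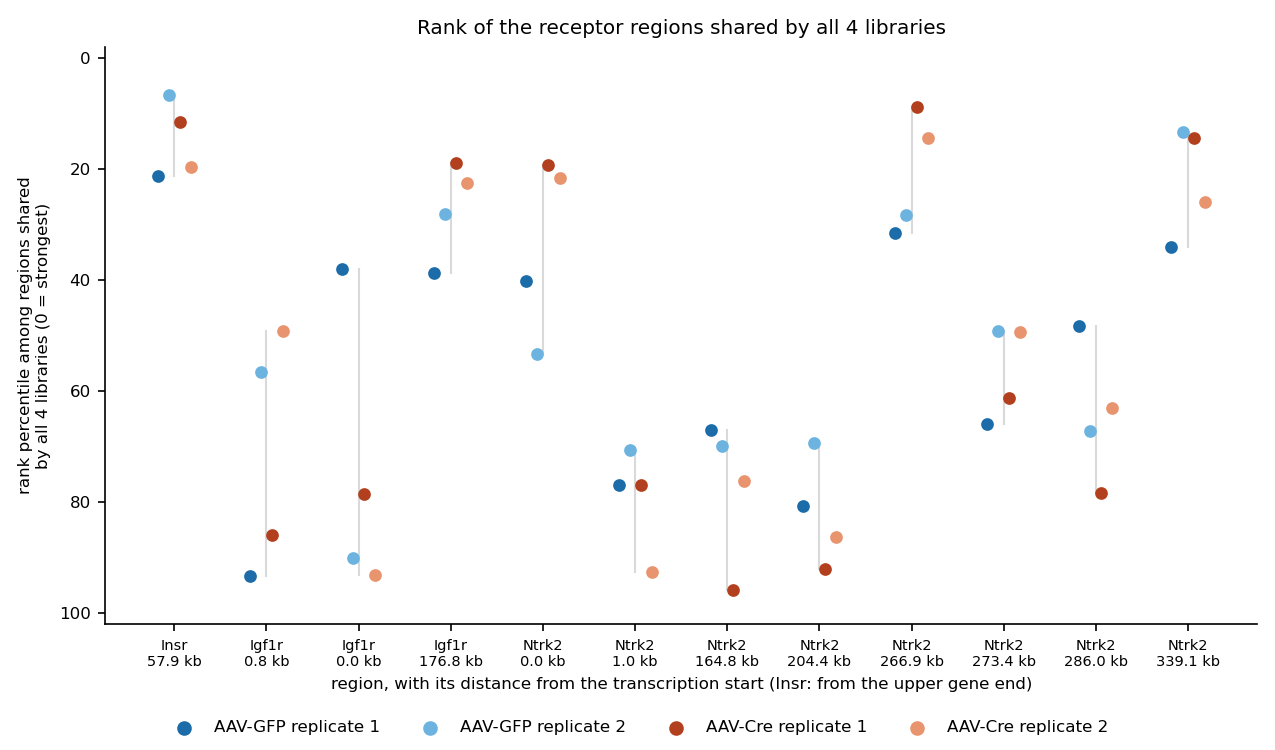
Rank percentile, by −log10 p and counted from the strongest, of the 12 receptor regions that all 4 libraries share, among the 14634 shared regions, with 1 point per library and the region's distance from the start under each. The Ntrk2 start (0.0 kb) ranks stronger in both AAV-Cre libraries than in both controls, while at the Igf1r start the 2 controls lie 52.0 points apart.

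The promoters differed in base composition, in an order that their openness did not follow throughout. Igf1r had 48 CpG dinucleotides in its 300 bases and a GC content of 76%, which put it at percentile 98.7 of CpG number among the 21263 protein-coding promoters. Ntrk2 had 23 and Glp1r 29, at percentiles 73.1 and 84.6. Npy1r had 10, Npy5r 15, Npy2r 14 and the Lepr starts 18 and 13, close to the median of 13 over all promoters. CpG content and openness went together in the series: of promoters with 10 to 14 CpG 49.2% had a peak in all 4 libraries and 5.21% were control-specific, and of those with 20 to 29 the shares were 74.8% and 3.24%. Glp1r, open in 1 library, and Lepr, open in none, differed from most promoters of their class. Of promoters with 20 to 29 CpG 12.2% had a peak in 1 library or none. Of those with 15 to 19, the class of the first Lepr start, 14.1% had none, and of those with 10 to 14, the class of the second, 24.2%.

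**Figure D5:**
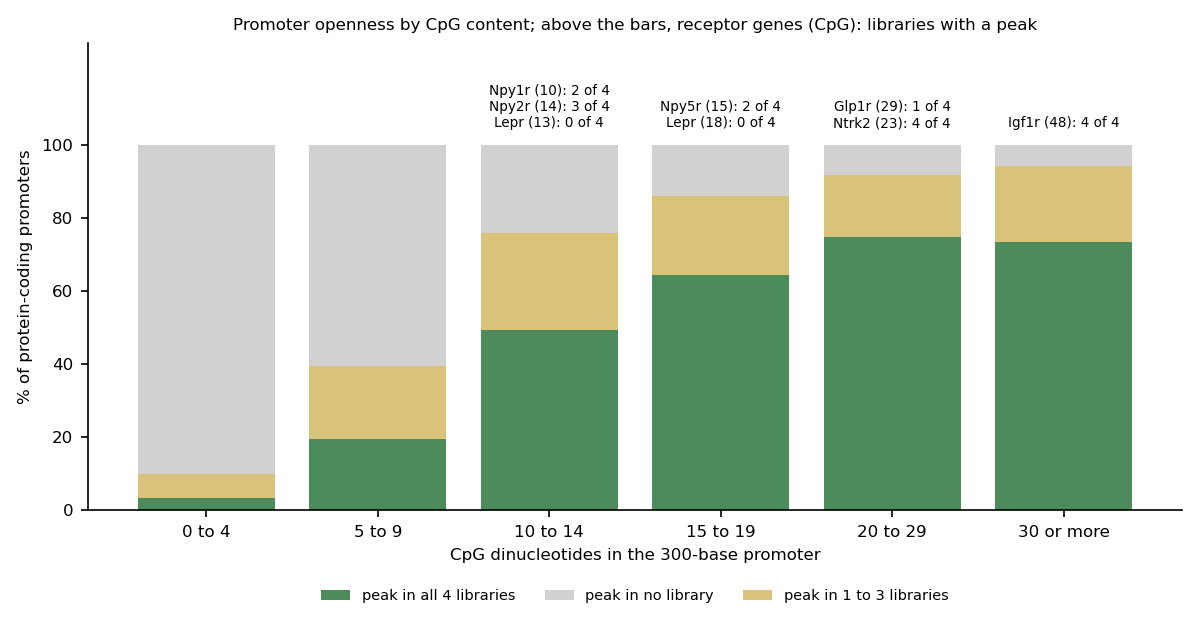
Percentage of 21263 protein-coding promoters with a peak within 1 kb of the start in all 4, in 1 to 3 or in no libraries, by number of CpG dinucleotides in the 300-base promoter. Names above the bars place the receptor genes, each start of Lepr separately, with their CpG count and the number of libraries with a peak: Igf1r (48) and Ntrk2 (23) were open in 4, Glp1r (29) in 1.

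Matches to 7 short motifs were sought on both strands of the receptor promoters, as letters and not as sites of binding. TAATTA, a palindromic form of the TAAT core that homeodomain factors such as Otp bind, was in none of the 8 promoters of the 7 genes, against 4.53% of all protein-coding promoters. The paired homeodomain dimer, an inverted pair of TAAT cores with 3 free bases between them, was in none, against 0.362%; its ends can overlap that core. The STAT motif TTCNNNGAA (7.69% of promoters), the cAMP response element TGACGTCA (2.23%) and the TATA box TATAAA (12.6%) were also in none. The GC box GGGCGG (46.2% of promoters) was found at Npy2r, from -62 to -57 relative to the start, at Igf1r in 2 places, at Ntrk2 in 1, at the second Lepr start in 1 and at Glp1r in 3, of which 2 share a base. CCAAT (38.2%) was found at Npy5r, on the reverse strand from -103 to -99, and at the first Lepr start. Npy1r matched none of the 7.

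The wider pathways were read from 76 further genes: ligands, other receptors, receptor partners and signalling genes. Start sites of the signalling genes downstream of these receptors were mostly open, with 27 of 36 having a peak in all 4 libraries, against 44.1% of protein-coding genes. Among them were Jak2 and Stat3, which carry the leptin signal, Irs1 and Irs2, the docking proteins of the insulin receptor, and Creb1. Of 12 ligand genes 0 were open in all 4 and 10 in none, the share of protein-coding genes open in none being 40.5%, including Npy itself, and Igf1 and Bdnf had a peak in AAV-GFP replicate 1. Of 20 other receptor genes, 4 were open in all 4 libraries (Ngfr, Igf2r, Adipor1 and Adipor2) and 13 in none, including Npy4r, Ghsr and Calcr. Among 8 receptor partners 5 were open in all 4, including Leprot, named for its overlap with the leptin receptor transcript. In 20 of the 76 genes either gene end was used for want of a listed start.

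Group-specific regions at these pathway genes were close to the series' share, both at the starts and in the bodies. At 2 of 76 starts a peak was in both controls alone, against 2.93% of protein-coding genes: at Ramp1, which encodes a partner of calcitonin-family receptors, and at Shc2, an adaptor of receptor tyrosine kinases. In the gene bodies with 1 kb to either side, 29 of 243 regions were control-specific (11.9%, against 11.5%) and 4 Cre-specific (1.65%, against 1.18%). Sorcs2, which encodes a sorting receptor that binds proneurotrophins, held 7 of the 29 and 2 of the 4, and 25 of the 243 regions. Jak2 held 3 control-specific regions out of 6, with folds from 4.63 to 7.09. Ramp3 (4.11 and 5.46) and Foxo1 (4.34 and 4.53), a transcription factor that insulin signalling restrains, held 1 Cre-specific region each, out of 2 and 6. Control-specific regions also lay at Igf1, Ntrk3, Ngfr, Gipr, Stat3, Grb10, Pik3r1, Akt1, Akt2, Mtor, Gnai1, Gnao1, Gnas and Creb1.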

How the data were processed

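Peak lists of 4 ATAC-seq libraries and 2 groups were used. The submitters' processing notes name build mm10 and the tools Bowtie2, MACS2, Trim Galore and FastQC. For their versions, any read shift and the calling threshold, nothing is stated in those notes. The deposited fold enrichment is the authors' ratio for each peak, and the deposited −log10 p and −log10 q are the peak caller's, with a lowest −log10 q of 1.30 to 1.31 in each library list. The deposited score, the whole part of 10 times −log10 q in nearly all peaks, was not used. No read counts were used, so depth is unknown and precision rests on 2 libraries per group. The names of the library lists carry an unexplained "sub"; if it means that reads were subsampled, list length does not reflect depth.

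Peaks sharing at least 1 bp were merged (Python 3.11.15, pandas 2.3.3, numpy 2.4.6), the strongest peak of a library standing for it in a region; tied peaks got their mean rank. Merging and calling were tested on simulated peaks. Genes and promoters came from RefSeq tables of GRCm38.p6. Members, lists and motifs were chosen with earlier results of these data known. Named genes were the 8 members, pathway genes with a group-specific region within 1 kb of the gene, and nearest neighbours of described regions. Other pathway genes, chosen after their values were seen, illustrate counts, and 1 listed gene is not reported here by name. Alternatives were equal list length, −log10 q of at least 5, 50% overlap, windows of 10 and 100 kb, a start window of 2500 bp, group lists, leaving out each library and pairing by number.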

Additional observations from a re-analysis of the deposited data

How the results depend on the processing

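Depth is unknown, and most counts moved with list length. The 8 control-specific receptor regions became 0 of 42 in lists of equal length, against 5.41% of all regions, and 4 of 52 with a window of 10 kb (against 11.5%). With the authors' group lists they were 20 of 31 peaks, against 48.9% of control list regions. Without AAV-GFP replicate 1 there were 11 of 44 (against 27%), and without AAV-GFP replicate 2 the highest count, 24 of 57 (against 49.4%). There were 13 of 54 without AAV-Cre replicate 1 (against 15.4%) and 13 of 58 without AAV-Cre replicate 2 (against 18.1%). At a −log10 q of at least 5 there were 10 of 38, a larger share than the 14.2% of all regions. Of these 10, 4 were among the original 8. The 0 Cre-specific regions became 2 of 42 at equal length, against 4.6% of all regions, and 2 of 14 peaks with the group lists, against 11.6%. They were 1 of 44 without AAV-GFP replicate 1 (against 3.9%) and 1 of 57 without AAV-GFP replicate 2 (against 1.6%). Leaving out AAV-Cre replicate 1 gave 2 of 54 (against 6.05%), and leaving out AAV-Cre replicate 2 gave 5 of 58 (against 4.88%). The difference of -18 regions per library was 0.5 at equal length and -12.5 to -24.5 with 1 library left out, in the same direction in every other alternative. The rank difference of 0.687 points had no stable sign: it became -2.16 in lists of equal length, -13.2 at the stricter q, -1.06 with a window of 100 kb and -3.05 to 5.46 with 1 library left out. The 2 genes open at the start in all 4 libraries were 1 at the stricter q, Ntrk2, and 2 to 4 with 1 library left out, the highest without AAV-Cre replicate 1. Fewer libraries make a region specific, or shared, more easily by construction. For all other moves the cause was not tested. Equal length also removes peaks from the control lists first.

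Replicates 1 and 2 occur in both groups. With number as a replicate block, values were 8, 0, -18, 0.687 and 2, unchanged by construction, with exact p = 0.5 for both differences by permutation, the smallest that 2 pairs allow. Same-numbered libraries did not deviate together (r = -0.0166 across 14634 shared regions, which are not replicates), and the numbers were not taken to pair them.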
